A study of Mus musculus with 6 samples.

Results

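Cadherins and protocadherins are calcium-dependent adhesion proteins of the cell surface. The genes described here are the 92 rows, of 17920 in the expression table, whose symbol starts with Cdh and a number or with Pcdh. They comprise 23 Cdh genes (18 classical cadherins and 5 others), 12 single protocadherins and 57 clustered protocadherins, of which 14 belong to Pcdha, 22 to Pcdhb and 21 to Pcdhg. Of the 92, 83 passed the filter on low counts and were tested.

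Mouse cortical cells of stage E13.5 (counted in embryonic days) were cultured, infected with a lentivirus carrying a short hairpin RNA and selected with puromycin, and their mRNA was sequenced. The knockdown group (KD, n = 3 libraries) received hairpin RNA against Ybx1, an RNA-binding protein that reads 5-methylcytosine in mRNA, and the control group (labelled WT, n = 3) received a control virus, so both groups were cultured, infected and selected. The titles say cortex and the labels brain, and they name neither a strain nor the cells of the culture. The study calls the cells neural stem cells or cortical progenitors in its results and cortical cells in its methods. It names no strain for them. Neuron markers were also detected, as described below, so the culture can hold progenitors and neurons together. In such mixed cells, fewer cells of a type and less RNA per cell cannot be told apart.

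Classical cadherins bind the same cadherin on the neighbouring cell and are tied to actin through catenins. Clustered protocadherins are expressed in combinations that differ from neuron to neuron and serve self-recognition of neurites. Each Pcdha or Pcdhg gene has its own promoter and its own large first exon, which is spliced to exons shared by the whole cluster, whereas Pcdhb genes have no such shared exons.

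The targeted gene checks the labels. Ybx1 was at 618, 615 and 653 normalised counts (CPM, counts per library scaled to a common total of 1000000) in the WT libraries and at 98.3, 92.2 and 159 CPM in the KD libraries, and fell by 2.43 on the log2 scale (SE 0.18, adjusted p = 1.8e-04). Library totals lay between 16294635 and 16497505 estimated counts, and the 92 genes took 0.370 to 0.400% of a WT library and 0.430 to 0.441% of a KD library. Values are means ± SD over 3 libraries, and adjusted p values were computed by edgeR (quasi-likelihood) and corrected by the Benjamini-Hochberg method over 13669 genes.

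The Pcdhg genes were higher in KD and make up most of the changed members, while summed Pcdha and Pcdhb differed little between the groups. Of the 83 members tested, 20 rose and 4 fell (28.9% called), against 24% of all 13669 genes tested, of which 1646 (12%) were higher and 1631 (11.9%) lower. Of the 20 that rose, 16 were Pcdhg genes. The median log2 fold change of the members was 0.08, beside -0.00 over all genes. In 33 members (39.8%) the CPM ranges of the groups did not overlap, 25 with KD above and 8 with KD below, beside 41.6% of all genes. With the replicate number as a block, 31 members rose and 5 fell, beside a background of 36.6%. Without WT replicate 2 the number that rose was 13.

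**Figure D1:**
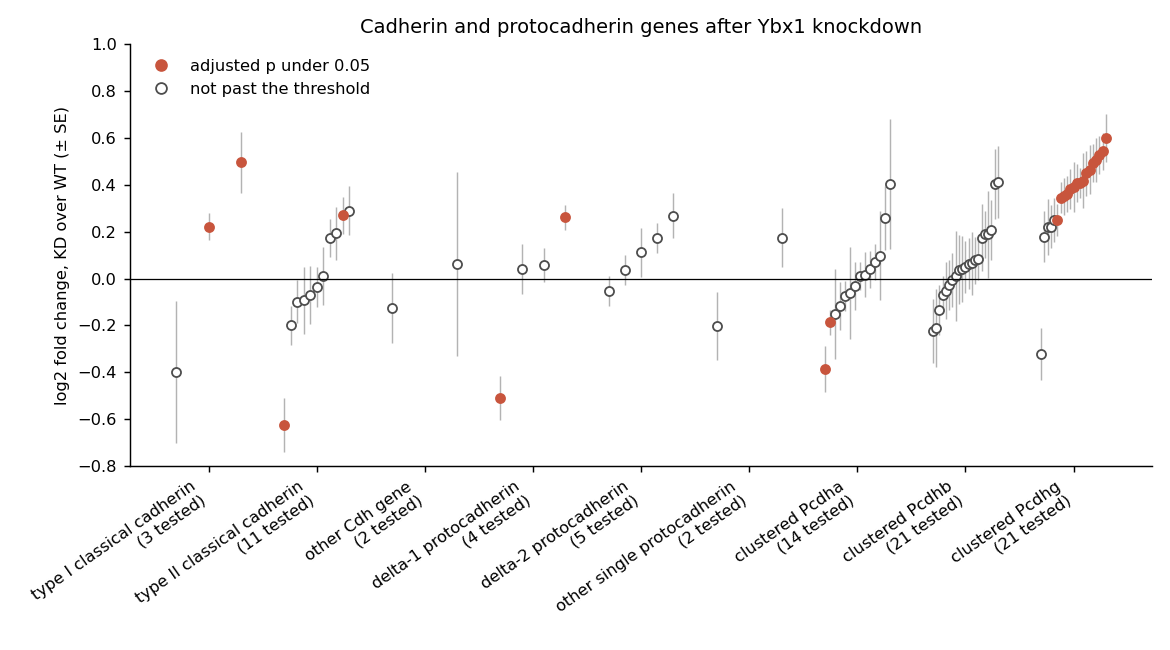
Log2 fold change, KD over WT, of the 83 tested members by subgroup, with SE bars; filled points have an adjusted p under 0.05. In Pcdhg, 20 of 21 genes lie above 0 and 16 are filled, whereas no Pcdhb gene is filled.

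How the reads of the clustered genes were counted bears on their values. The estimated counts of all 14 Pcdha and all 21 Pcdhg genes were fractional in at least 1 library, as were those of 14.3% of all genes listed, whereas the Cdh genes, the single protocadherins and Pcdhb held whole numbers throughout. Such fractions appear when reads that match several genes are split among them. In the GENCODE annotation of GRCm38, the exons that Pcdhg genes share with other genes hold 2116 to 2119 bases, or 41.7 to 45.5% of a gene's exonic bases, and 2542 to 2961 bases are a gene's own. For the 13 Pcdha genes found there the shared portion was 48.6 to 57.4%. The value of a single Pcdha or Pcdhg gene therefore depends on that division and is less certain than the sum of its cluster. Among the 48 tested members with whole-number counts, 4 rose and 2 fell (12.5% called), beside 24% of all genes, and 11 rose and 2 fell with the replicate block (27.1% called, beside 36.6%).

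The 3 clusters lie one after another on chromosome 18, Pcdha at 36930285 to 37188897, Pcdhb at 37264998 to 37521419 and Pcdhg at 37661775 to 37841873 (GRCm38). Summed over its genes, Pcdhg stood at 786, 751 and 829 CPM in WT and at 1027, 996 and 1053 CPM in KD. Every KD library lay above every WT library. Summed Pcdhg rose by 0.38 on the log2 scale (SE 0.05, 95% interval 0.27 to 0.49, adjusted p = 0.0014), from 789 ± 39.1 to 1025 ± 28.7 CPM, which is 30.1% more.

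Summed Pcdha was at 447, 451 and 414 CPM in WT and at 407, 444 and 437 CPM in KD, so the groups overlapped. Its log2 fold change was -0.03 (95% interval -0.15 to 0.09, adjusted p = 0.755), an interval that runs from 9.69% less to 6.76% more. Summed Pcdhb was at 195, 197 and 207 CPM in WT and at 209, 210 and 198 CPM in KD, again overlapping. Its log2 fold change was 0.05 (95% interval -0.06 to 0.15, adjusted p = 0.523).

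**Figure D2:**
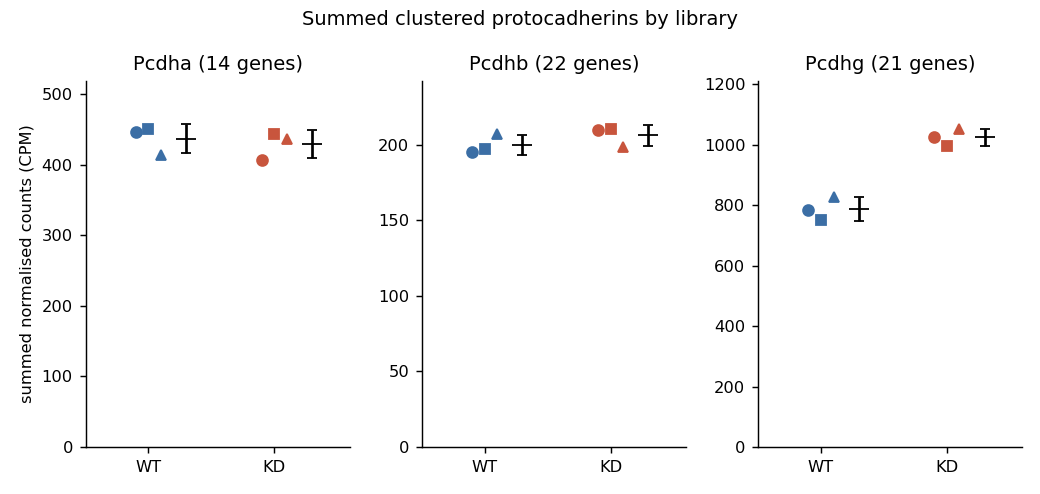
Summed normalised counts (CPM, axis from 0) of each protocadherin cluster in the 3 WT and 3 KD libraries, with mean ± SD beside the points. The Pcdhg sums of the groups are apart (751 to 829 in WT, 996 to 1053 in KD), and those of Pcdha and Pcdhb overlap.

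Within a library, Pcdhg was 1.76, 1.66 and 2.0 times Pcdha in WT and 2.52, 2.24 and 2.41 times in KD. It was 4.03, 3.81 and 4.0 times Pcdhb in WT and 4.90, 4.73 and 5.31 times in KD. Neither ratio overlapped between groups. An exact two-sided permutation test gave p = 0.1 for each, the smallest value that 3 against 3 libraries allow, and 0.1 after Benjamini-Hochberg adjustment over the 2 ratios tested.

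By type, 9 of 12 Pcdhga genes rose, 5 of 6 Pcdhgb genes and 2 of 3 Pcdhgc genes, and none fell. That is 76.2% of Pcdhg genes called higher, where 12% of all genes were. The median log2 fold change was 0.39 over the 21 genes, 0.36 for Pcdhga and 0.51 for Pcdhgb. Because the genes share exons and reads, they are not independent of each other. With the replicate block 19 rose and 1, Pcdhgc5, fell. Leaving out 1 library at a time left 12 to 15 higher, 12 of them without WT replicate 2.

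The most abundant Pcdhg gene was Pcdhgc3, a C-type gene whose protein can bind Axin1 and dampen Wnt signalling. It was at 145, 154 and 168 CPM in WT and at 197, 207 and 216 CPM in KD. All KD libraries were above all WT libraries, and it rose by 0.41 on the log2 scale (SE 0.06, adjusted p = 0.0031). Per length, its level went from 70.5 ± 6.0 to 96.9 ± 3.3 deposited TPM, which divides by transcript length.

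Pcdhgc4, a C-type gene known for its part in interneuron survival, was second in level, at 39.3 ± 5.4 TPM in WT. It was at 105, 80.7 and 95.0 CPM in WT and at 137, 110 and 121 CPM in KD. The groups did not overlap, with KD replicate 2 nearest to WT, and it rose by 0.39 (SE 0.10, adjusted p = 0.0279). Without WT replicate 2 the adjusted p was 0.0900, and it also missed 0.05 without any 1 of WT replicate 3 and KD replicates 1 and 3.

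The largest rises were in Pcdhgb genes. Pcdhgb5 was at 19.5, 16.1 and 17.3 CPM in WT and at 29.5, 26.5 and 24.2 CPM in KD, a log2 rise of 0.60 (SE 0.10, adjusted p = 0.0045). Pcdhgb6 was at 40.6, 36.0 and 34.2 CPM in WT and at 57.3, 53.2 and 50.8 CPM in KD, a log2 rise of 0.54 (SE 0.08, adjusted p = 0.0022). In both genes the lowest KD library stood above the highest WT library. Pcdhgb7 rose by 0.53, Pcdhgb4 by 0.49 and Pcdhgb1 by 0.42, the last with an adjusted p of 0.0324 that reached 0.101 when WT replicate 2 was left out and also missed 0.05 without either KD replicate 1 or 3.

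Among the Pcdhga genes, Pcdhga1, first in the cluster, was at 25.5, 25.5 and 30.7 CPM in WT and at 36.9, 36.4 and 42.4 CPM in KD, a log2 rise of 0.50 (SE 0.09, adjusted p = 0.0064). Pcdhga3, which had the highest Pcdhga level at 27.9 ± 2.2 TPM in WT, was at 58.9, 60.0 and 66.7 CPM in WT and at 73.9, 80.4 and 81.3 CPM in KD, a log2 rise of 0.34. In neither gene did the groups overlap. Pcdhga2 rose by 0.46, Pcdhga9 by 0.45, Pcdhga7 by 0.41, Pcdhga8 by 0.38, Pcdhga5 by 0.36, Pcdhga11 by 0.35 and Pcdhga12 by 0.25. Pcdhga12 lost its call without any 1 of WT replicates 1 and 2 and KD replicates 1 and 2, Pcdhga11 without KD replicate 2 and Pcdhga8 without WT replicate 2.

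Of the 5 Pcdhg genes past no threshold, 4 had log2 fold changes above 0, namely Pcdhga4 (0.25), Pcdhga10 (0.22), Pcdhgb2 (0.22) and Pcdhga6 (0.18). With the replicate block, the adjusted p was 0.0085 for Pcdhga4, 0.0460 for Pcdhga10 and 0.0348 for Pcdhgb2.

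The fifth, Pcdhgc5, is the last gene of the cluster, and it was picked out after its values were seen. It was at 12.8, 12 and 13.2 CPM in WT and at 11.3, 10.1 and 9.10 CPM in KD. Here the KD libraries lay below the WT libraries, and the log2 fold change was -0.32 (SE 0.11, adjusted p = 0.0663, and 0.0315 with the replicate block), where the other 20 Pcdhg genes had values above 0. Its share of summed Pcdhg was 1.61 ± 0.02% in WT and 0.991 ± 0.118% in KD, without overlap.

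**Figure D3:**
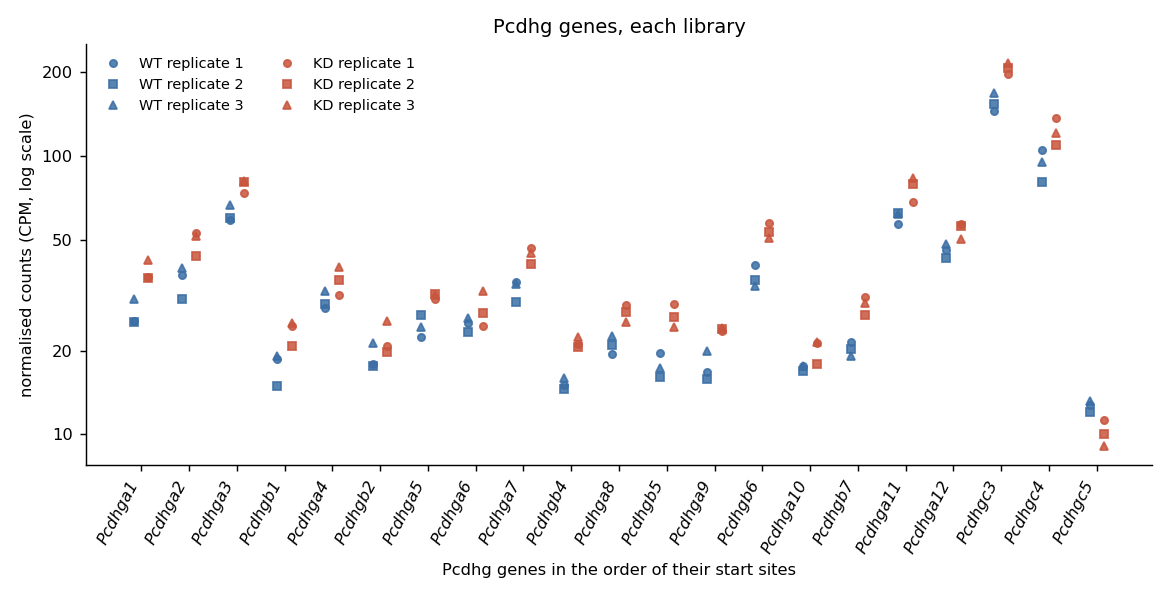
Normalised counts (CPM, log scale) of the 21 Pcdhg genes in each WT and KD library, in the order of their start sites. KD lies above WT without overlap in 17 genes and below it in 1, Pcdhgc5, beside 21% and 20.6% of all genes tested.

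In Pcdha, 0 genes rose and 2 of 14 fell, the same 2 that had an unadjusted p under 0.05, while DESeq2 called 1 and limma-voom 2. The 14.3% that fell is near the 11.9% of all genes. Of the 14 log2 fold changes, 7 were above 0 and 7 below. Pcdha12 was at 33.8, 36.9 and 28.6 CPM in WT and at 23.7, 26.3 and 26.1 CPM in KD, without overlap, and fell by 0.38 on the log2 scale (SE 0.10, adjusted p = 0.0223). Its share of summed Pcdha was 7.55 ± 0.63% in WT and 5.91 ± 0.08% in KD, a share that was looked at after the values of the gene were seen and is given without a test. Its call was lost without any 1 of WT replicates 1 and 2 and KD replicates 1 and 2, with a highest adjusted p of 0.0873.

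Pcdha5 was at 42.4, 42.3 and 42.6 CPM in WT and at 38.2, 36.8 and 36.7 CPM in KD, a small difference between tight groups, and fell by 0.19 (SE 0.05, adjusted p = 0.0328). Leaving out any 1 of the 6 libraries ended that call, with a highest adjusted p of 0.108. The highest Pcdha level was that of Pcdhac2, a C-type gene known for the spacing of serotonergic axons, at 37.3 ± 3.1 TPM in WT and 40.7 ± 3.0 TPM in KD, with a log2 fold change of 0.07 (adjusted p = 0.538). Pcdha3 came next at 18.3 ± 1.8 TPM in WT, with a log2 fold change of -0.03 (adjusted p = 0.845). Pcdha10 had a log2 fold change of 0.26 and passed the threshold with the replicate block only (adjusted p = 0.0408).

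No Pcdhb gene passed the threshold in edgeR (0 of 21), DESeq2 or limma-voom, and 2 had an unadjusted p under 0.05. These were Pcdhb6, with a log2 fold change of 0.41, and Pcdhb11, with 0.40, and both passed with the replicate block (adjusted p = 0.0229 and 0.0334). The median log2 fold change over the 21 genes was 0.05, and the values ran from -0.22 to 0.41. Levels were low throughout, with a WT median of 4.45 TPM over the cluster. The highest were Pcdhb20, at 13.0 ± 0.8 TPM in WT and 12.8 ± 0.7 TPM in KD, and Pcdhb17, at 12.9 ± 0.7 and 14.2 ± 1.4 TPM.

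**Figure D4:**
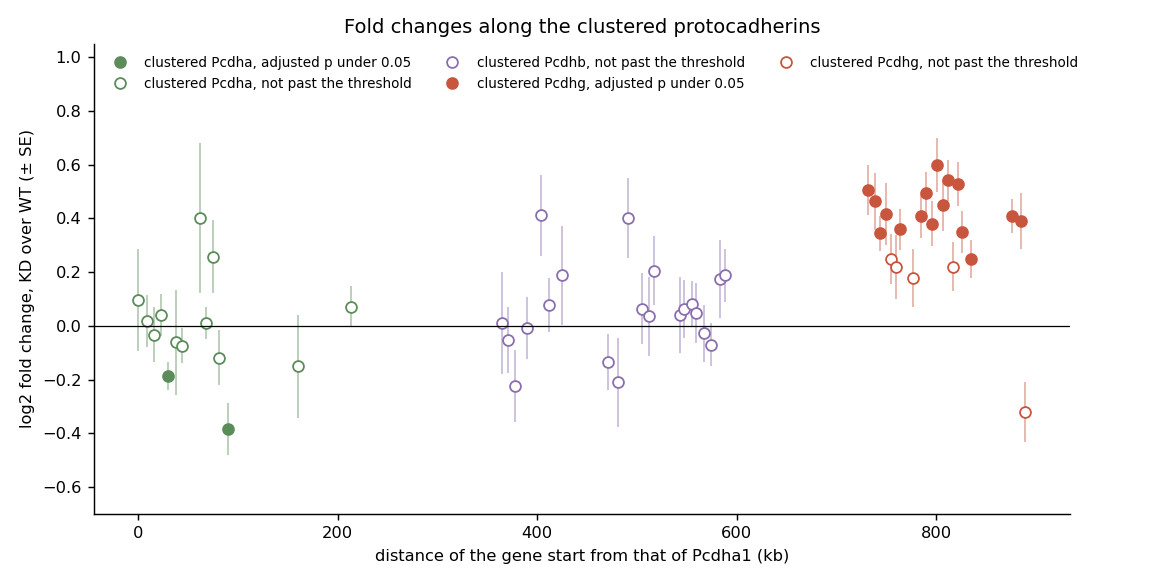
Log2 fold change, KD over WT (± SE), of the tested clustered protocadherin genes against the distance of each gene's start from that of Pcdha1 in kilobases. Filled points have an adjusted p under 0.05; the Pcdhg genes lie at 0.18 to 0.60 except Pcdhgc5, the last one, at -0.32.

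The genes beside the clusters, chosen by position after the values were seen, moved in either direction. Taf7, which encodes a subunit of the general transcription factor TFIID and lies between Pcdhb and Pcdhg, was at 30.7, 29.1 and 27.7 CPM in WT and at 23.9, 23.2 and 22.6 CPM in KD, and fell by 0.32 on the log2 scale (SE 0.07, adjusted p = 0.0111). Just past Pcdhg, the log2 fold change of Diaph1 was 0.03 (adjusted p = 0.763). The next genes were Hdac3, which rose by 0.22 (adjusted p = 0.0320, lost without any 1 of WT replicates 1 and 2 and KD replicates 2 and 3), and Rell2, which fell by 0.62 (adjusted p = 0.0023). Before Pcdha, Hars, Hars2 and Zmat2 did not pass the threshold (log2 fold changes of -0.03, 0.11 and 0.11).

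Of the 16 Cdh genes tested, 3 rose and 1 fell, all of them classical cadherins (of which 14 were tested). The 25% called is near the 24% of all genes. Cdh2, or N-cadherin, the main classical cadherin of neural progenitors and of the adherens junctions between radial glia, had the highest level of the 92 genes in WT. It was at 437, 463 and 502 CPM in WT and at 535, 562 and 538 CPM in KD, and at 204 ± 16.1 and 247 ± 9.5 TPM. The groups did not overlap, and it rose by 0.22 on the log2 scale (SE 0.06, adjusted p = 0.0225). The call was lost without any 1 of WT replicates 1 and 2 and KD replicate 2, with a highest adjusted p of 0.0839.

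Cdh4, or R-cadherin, the other type I classical cadherin with a high level, was at 176, 127 and 168 CPM in WT and at 258, 202 and 203 CPM in KD. The lowest WT and lowest KD values came from replicate 2, and the groups did not overlap. It rose by 0.50 (SE 0.13, adjusted p = 0.0251), which became 0.0686 without WT replicate 2, and the call was also lost without KD replicate 1.

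Cdh11, a type II cadherin of mesenchymal and neural cells and the most abundant of its type, was at 108, 117 and 135 CPM in WT and at 136, 148 and 150 CPM in KD. The highest WT value came close to the lowest KD value, and it rose by 0.27 (SE 0.08, adjusted p = 0.0392). Its call was lost without any 1 of WT replicates 1 and 2 and KD replicates 2 and 3, and the highest adjusted p was 0.126.

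Cdh7, also of type II, was the cadherin that fell. It was at 29.4, 25.3 and 21.9 CPM in WT and at 18, 16 and 15.7 CPM in KD, with all KD values below those of WT. It fell by 0.62 (SE 0.11, adjusted p = 0.0062), the largest change in size among the 83 genes tested, and kept its call without any 1 library. Among the remaining type II genes, Cdh10, second in level at 38.4 ± 4.1 TPM in WT, differed by 0.17 on the log2 scale (adjusted p = 0.149), Cdh24 by 0.29 and Cdh8 by 0.19, none past the threshold. These 3 passed with the replicate block (adjusted p = 0.0250, 0.0055 and 0.0227).

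Cdh13, or T-cadherin, which is anchored by a lipid and has no cytoplasmic part, was second in level among all members. It was at 222, 275 and 329 CPM in WT and at 205, 265 and 286 CPM in KD, so the libraries of a group differed from each other by more than the groups did. In all 3 replicate pairs the KD value was lower, and the log2 fold change was -0.13 (95% interval -0.47 to 0.21, adjusted p = 0.579). With the replicate block the log2 fold change of Cdh13 was -0.12 (adjusted p = 0.0540), not past the threshold. Cdh23, part of the tip link of hair cells, was at 0.703 ± 0.431 TPM in WT and 0.743 ± 0.414 TPM in KD.

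The cadherins that define other tissues were near 0. Cdh1, the E-cadherin of epithelia, had 3, 3 and 3 counts in WT and 2, 1 and 0 in KD. Cdh5, the VE-cadherin of endothelium, had 1, 0 and 0 counts in WT and 0, 0 and 1 in KD. Cdh3, or P-cadherin, had 3 to 6 counts in every library. The other members left out by the filter were Cdh16, Cdh17, Cdh19, Cdh26, Pcdh12 and Pcdhb1, with at most 7 counts in a library.

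**Figure D5:**
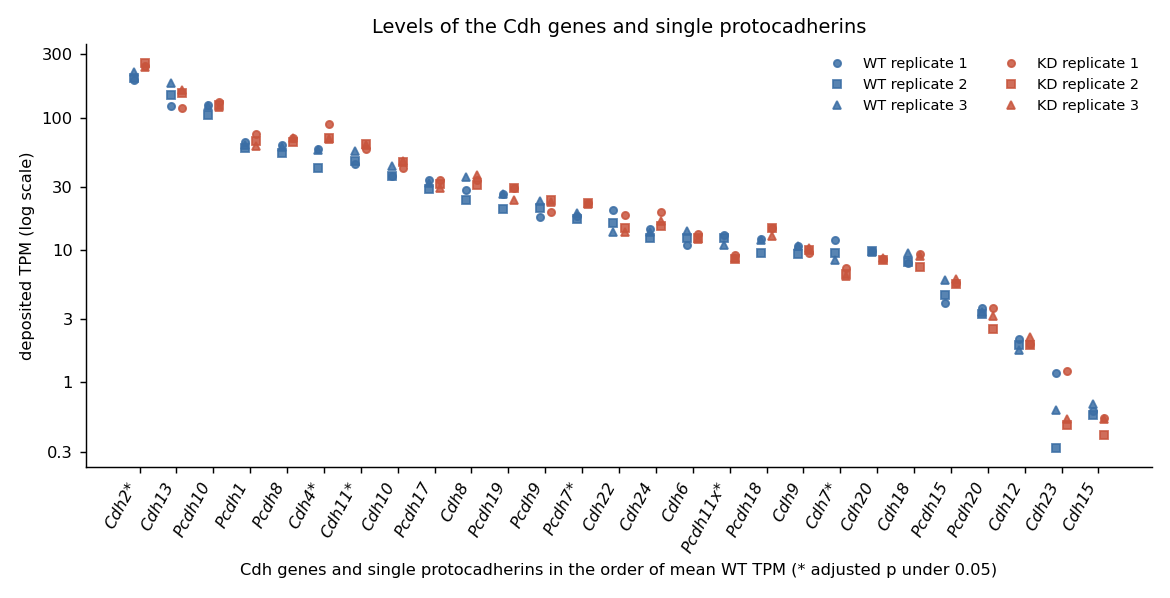
Deposited TPM (log scale) of the 27 tested Cdh genes and single protocadherins in each WT and KD library, in the order of mean WT TPM. Cdh2 is at the top at 204 TPM in WT, and genes with an adjusted p under 0.05 carry an asterisk.

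In the order of mean WT levels, Cdh2 (191 to 222 TPM over the WT libraries) was followed by Cdh13 (122 to 183 TPM), Pcdh10 (105 to 124 TPM) and Pcdhgc3 (65.6 to 77.2 TPM). The ranges of Cdh13 and Pcdh10 overlapped, and so did those of Pcdhgc3 and Pcdh1 (58.8 to 65.9 TPM).

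Of the 11 single protocadherins tested, 1 rose and 1 fell, both of the delta-1 type, whose proteins carry a site for protein phosphatase 1. The 18.2% called is below the 24% of all genes. Pcdh7 was at 76.7, 73.8 and 81.7 CPM in WT and at 92.6, 92.2 and 93.4 CPM in KD. The KD libraries were close together and above WT, and it rose by 0.26 on the log2 scale (SE 0.05, adjusted p = 0.0095). Pcdh11x, which like Pcdh19 lies on the X chromosome, was at 55.4, 53.3 and 42.9 CPM in WT and at 36.5, 34.1 and 35.9 CPM in KD. All KD values were below WT, and it fell by 0.51 (SE 0.09, adjusted p = 0.0062). Both calls held without any 1 library, with a highest adjusted p of 0.0452 and 0.0343.

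The other delta-1 genes were Pcdh1, at 62.4 ± 3.5 TPM in WT and 67.6 ± 6.7 TPM in KD, and Pcdh9, at 20.7 ± 2.7 and 22.0 ± 2.4 TPM, with log2 fold changes of 0.06 and 0.04. None of the 5 delta-2 protocadherins passed the threshold in edgeR, DESeq2 or limma-voom, and 2 had an unadjusted p under 0.05, while limma on log2(TPM + 1) called 1, Pcdh8. Pcdh10, the most abundant single protocadherin, was at 335, 288 and 320 CPM in WT and at 341, 310 and 316 CPM in KD, overlapping, with a log2 fold change of 0.04 (95% interval -0.11 to 0.18). Pcdh8 was at 112, 99.2 and 107 CPM in WT and at 122, 112 and 125 CPM in KD, and its log2 fold change was 0.17 (adjusted p = 0.0772, and 0.0134 with the replicate block). For Pcdh18 the log2 fold change was 0.27 (adjusted p = 0.0698, and 0.0174 with the block). Pcdh15, the tip link partner of Cdh23, and Pcdh20 had log2 fold changes of 0.17 and -0.20, neither past the threshold.

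Ybx1 belongs to a family named for the Y box, a promoter element around CCAAT. The study places Ybx1 protein mainly in the cytoplasm of neural progenitors and holds that a role in transcription may be questionable. The sequence before the start of the members was searched for CCAAT on both strands (CCAAT or ATTGG, which can overlap each other by 2 letters). Whether any match matters for the knockdown was not tested. RefSeq promoter sequences (GRCm38) were matched for 22 of the 92 members, and 14 of them (63.6%) held the letters in the 250 bases before a start, as did 37.5% of 27025 genes. The matched members were Cdh genes and single protocadherins. No clustered protocadherin was among them, so the share does not cover the Pcdhg genes. Of the called members, only Pcdh7 and Cdh7 were matched, and Cdh2, Cdh4 and Cdh11 were not. The 250 bases before the start of Pcdh7, which rose, and before the first start of Cdh7, which fell, are shown to let these letters be seen in their surroundings, with the match in capitals. Both lie on the plus strand, at chr5:57717831-57718080 and chr1:109982650-109982899.
Pcdh7: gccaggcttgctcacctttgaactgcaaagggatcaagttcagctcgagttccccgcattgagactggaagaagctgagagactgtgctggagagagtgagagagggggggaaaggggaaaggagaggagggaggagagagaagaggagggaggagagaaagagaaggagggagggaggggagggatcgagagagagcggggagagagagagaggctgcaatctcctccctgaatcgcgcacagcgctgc
Cdh7: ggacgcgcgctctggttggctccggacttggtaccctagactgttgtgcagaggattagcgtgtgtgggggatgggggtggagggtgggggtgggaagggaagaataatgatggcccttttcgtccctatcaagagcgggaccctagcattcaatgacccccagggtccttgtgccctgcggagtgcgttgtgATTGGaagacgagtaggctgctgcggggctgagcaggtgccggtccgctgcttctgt
The Cdh7 sequence shown holds 1 match, the windows before the other 2 starts of Cdh7 hold 0, and the Pcdh7 sequence holds 0, which says only that those letters are not in these windows.

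The intracellular partners of cadherins were measured next. Catenins link the cadherin tail to actin, and of 14 catenin and junction genes tested, 4 rose and 0 fell in edgeR, with 6 at an unadjusted p under 0.05 and 4 called by DESeq2, while the replicate block gave 6 higher and 1 lower. The 28.6% called is near the 24% of all genes. Ctnnb1, or beta-catenin, went from 594 ± 33.0 to 715 ± 11.2 CPM, a log2 rise of 0.27 (adjusted p = 0.0062). Ctnna2, the neural alpha-catenin, rose by 0.29, Vcl, or vinculin, by 0.46, and Afdn, or afadin, by 0.22. The call of Afdn was lost without any 1 of WT replicates 1 and 2 and KD replicates 1 and 2.

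Of 9 genes for cleavage and internalisation of cadherins, 3 fell and 0 rose in edgeR, with 4 at an unadjusted p under 0.05 and 3 called by DESeq2, and with the replicate block 2 rose and 3 fell. The share called was 33.3%, beside 24% of all genes. Adam10, the sheddase of N-cadherin and Pcdhg proteins, fell by 0.28, from 93.9 ± 7.5 to 77.2 ± 3.9 CPM (adjusted p = 0.0198), Psen2, of the gamma-secretase complex, by 0.38, and Mmp24, a membrane metalloproteinase, by 0.27. The calls of Adam10 and Psen2 were lost without WT replicate 2 or KD replicate 2, leaving 1 that fell, and that of Adam10 also without KD replicate 1. Another list holds large and seven-pass cadherins, whose symbols start otherwise, and also the calsyntenins, Dsc2 and Fjx1. Of its 14 genes tested, 2 rose and 2 fell (28.6% called, beside 24% of all genes, and 4 and 3 with the replicate block). Celsr1, a seven-pass cadherin of planar cell polarity, went from 31.6 ± 8.9 to 64.0 ± 6.1 CPM, a log2 rise of 1.02 (SE 0.16, adjusted p = 0.0037). Fat3 rose by 0.36, while the calsyntenins Clstn1 and Clstn3 fell by 0.17 and 0.57. The call of Fat3 was lost without any 1 of WT replicates 2 and 3 and KD replicates 1 and 2, and that of Clstn1 without WT replicate 1 or WT replicate 2.

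Promoter choice in the clusters is known to depend on the insulator protein CTCF, on cohesin, which extrudes loops of chromatin, and on DNA methylation. The list tested holds 19 genes for these and for other chromatin proteins, such as Lbr, Setdb1, Smchd1, Wiz and Zfp143. Of the 19, 12 rose and 0 fell in edgeR (63.2% called higher, beside 12% of all genes). There were 15 at an unadjusted p under 0.05 and 12 called by DESeq2, and the median log2 fold change was 0.23. Stag2, a cohesin subunit, was the largest, going from 88.3 ± 5.5 to 113 ± 6.7 CPM, a log2 rise of 0.35 (adjusted p = 0.0063). Lbr, the lamin B receptor, rose by 0.33, Dnmt1, the maintenance DNA methyltransferase, by 0.32 and Wapl, which releases cohesin, by 0.29. With the replicate block 15 rose and 0 fell, beside 18.6% of all genes higher. The number that rose was 7, 2 and 12 without WT replicate 1, 2 and 3, respectively. It was 6, 2 and 13 without KD replicate 1, 2 and 3. Of the 12 called in the main fit, only Stag2 kept its call without any 1 library. Dnmt1 lost its call without WT replicate 2, and Wapl without WT replicates 1 or 2 or KD replicates 1 or 2. Lbr lost its call without any 1 library except KD replicate 3. The part of these genes in the Pcdhg values was not tested.

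Of 20 genes that act downstream of clustered protocadherins, 3 rose and 1 fell (20% called, beside 24% of all genes, and 4 and 3 with the replicate block). Marcks, an actin-binding substrate of protein kinase C, rose by 0.33, the kinase Fyn by 0.30 and Axin1, the Wnt pathway scaffold, by 0.21, while Abi2, of the WAVE complex, fell by 0.17. The call of Axin1 was lost without any 1 library except KD replicate 1, and that of Abi2 without WT replicate 2 or any 1 KD library. Of 8 transcription factor genes that repress cadherins, 3 were tested, and Tcf3 rose by 0.37. That is 33.3% called, beside 24% of all genes, and 2 of them rose with the block.

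Some cell type markers moved between the groups as well. Of 6 intermediate progenitor markers tested, 4 rose (66.7% called, beside 24% of all genes), with a median log2 fold change of 1.13. Their summed level was 65.7 to 87.5 TPM in WT and 136 to 161 TPM in KD. Of 11 radial glia markers 3 rose and 0 fell (3127 to 3496 TPM in WT, 3558 to 3864 TPM in KD). The 27.3% called is near the 24% of all genes. Of 13 neuron markers 2 rose and 4 fell, or 46.2% called (7300 to 7947 TPM in WT, 6651 to 7560 TPM in KD). Without WT replicate 2, 0 radial glia markers rose in edgeR, and 1 neuron marker rose (Dcx) and 1 fell (Mapt). Without KD replicate 2, 1 neuron marker rose (Dcx) and 1 fell (Syt1). With the replicate block, 6 intermediate progenitor and 7 radial glia markers rose, and 4 neuron markers rose and 4 fell, beside 36.6% of all genes called. Their part in the cadherin and protocadherin values was not tested.

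Markers of GABAergic neurons had 1 of 8 higher (12.5% called, 2 higher and 2 lower with the block, 558 to 848 TPM in WT, 584 to 901 TPM in KD). Those of astrocytes and oligodendrocytes had 2 of 9 lower (22.2% called, 4 lower with the block, 363 to 442 TPM in WT, 315 to 365 TPM in KD). Both shares are below the 24% of all genes. The sum of 10 endothelial markers was 8.77 to 9.71 TPM in WT and 8.47 to 9.28 TPM in KD, most of it Egfl7, with Cldn5 and Cdh5 at or near 0. Meningeal and mesenchymal markers summed to 26.4 to 49.7 and 32.6 to 44.1 TPM, microglia markers to 2.83 to 6.16 and 3.62 to 5.15 TPM, and choroid plexus and epithelial markers to 3.13 to 4.20 and 4.13 to 4.55 TPM. Of 4 meningeal and mesenchymal markers tested, 1 rose, Pdgfrb (25% called, beside 24% of all genes). Their log2 fold changes had a median of -0.19 and ran from -0.60 to 0.72. The 1 microglia marker tested did not pass the threshold. Cldn1, the 1 choroid plexus and epithelial marker tested, rose. Pdgfrb kept its call only without WT replicate 3 when 1 library was left out, and Cldn1 lost it without KD replicate 2.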

How the data were processed

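The 6 libraries were grouped by their titles. Control columns carry the name Ctrl and were matched by number to the WT titles. The series holds a table of estimated counts per gene, which the authors deposited with 2 decimals beside TPM, FPKM and group averages. The submitters' processing notes name HISAT2 2.2.1, Bowtie2 2.4.5 and RSEM 1.3.1 and the genome builds GRCm38 and mm10 without a role, and the annotation is not given in the sources used here. The deposited TPM values sum to about 1000000 in each library and were used for levels. The 6 columns of FPKM made by the authors and 6 group averages were not used here.

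Estimated counts were rounded, and edgeR 4.0.16 (R 4.3.3) compared KD with WT (TMM scaling, filterByExpr with a minimum count of 10, quasi-likelihood F-test, no covariates, Benjamini-Hochberg adjustment over 13669 genes, threshold 0.05). SE was taken as the size of the log2 fold change over the square root of F. Cluster sums were formed before rounding and tested by the same method in a fit where each sum replaced its genes. Ratios were tested by exact permutation in scipy 1.17.1. The study speaks of independent replicate experiments but names no cultures or litters. The p values therefore measure the spread between these libraries, and how far that spread is biological is not given. Replicates of a group differed by more than sampling noise (chi-square per degree of freedom 4.59 to 9.05).

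The deviations of same-numbered WT and KD libraries from their group means correlated at 0.35, 0.32 and 0.18 over genes. Those of differently numbered libraries correlated at -0.28 to -0.02, so same-numbered libraries varied together. The main fit and the fits that leave out 1 library take no account of this. What a number marks is not given in the labels. Blocking on the replicate number was an alternative, besides 3 other scalings, 2 other filters, unrounded counts, DESeq2 1.42.0, limma 3.58.1 on counts (voom) and on log2(TPM + 1), a stricter threshold of 0.01, leaving out each library, whole-number members only and, added after the data were seen, sums that include genes joining Pcdha and Pcdhg exons.

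Genes named are the members past the threshold, the 2 of highest WT TPM in each subgroup and cluster, Cdh1 to Cdh5, Ybx1 and up to 4 called genes per list with the largest change, and others only where said or where the block or a neighbour calls for it. Members and lists were chosen with earlier results of these data known.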

Additional observations from a re-analysis of the deposited data

How the results depend on the processing

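The replicate block brought 31 members higher, 1 Pcdhg gene lower, and 2539 and 2470 of all genes higher and lower. Of the members it changed no call other than the 12 gained that are given above, and ended none of the 24. Calls said to be lost without 1 library come from fits without the block. For the members with such lost calls, the edgeR adjusted p with the block and all 6 libraries ran from 3.5e-05 (Cdh4) to 0.0258 (Pcdha5). It was 3.8e-05 for Pcdhgc4 and 0.00098 for Cdh11. At an adjusted p under 0.01, 9 members were higher and 2 lower, 8 Pcdhg genes were higher, and 629 and 634 of all genes were higher and lower. At the usual threshold of 0.05, 4 of the 48 tested members with whole-number counts were higher and 2 lower. That is 12.5% called, beside 24% of all genes. On log2(TPM + 1) in limma, 2 members and 1072 of all genes were lower, and the share of calls that were higher moved from 50.2% to 65.9% over all genes, from 83.3% to 91.3% over members. It was 43.0% of all calls with upper quartile and 57.9% with total count scaling. Leaving out 1 library gave 13 to 21 members higher and 2 to 3 lower, 779 to 1612 of all genes higher and 797 to 1583 lower; the fits had fewer samples.

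Summed Pcdhg kept its direction and its side of the threshold in 16 alternatives, with log2 fold changes of 0.35 to 0.43, among them 0.37 with the joining genes included. Summed Pcdha turned to 0.023 on TPM and ranged from -0.065 to 0.011 without 1 library (0.011 without KD replicate 1). The cause was not tested. Values near 0 also changed sign without 1 library, in Cdh13 (-0.26 to 0.022), Cdh23 (-0.44 to 0.43), Pcdh1 (-0.018 to 0.12), Pcdh10 (-0.024 to 0.085), Pcdh9 (-0.053 to 0.13), Pcdha3 (-0.12 to 0.061, and 0.014 on TPM) and Pcdhac2 (-0.0021 to 0.12). None of the 24 called members changed sign under any alternative. Pcdha5 lost its call with total count scaling, no filter, DESeq2 and TPM, and Pcdha12 on TPM.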

Other observations

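The table lists 2 tested genes that join exons of Pcdha and Pcdhg. Gm37013 was at 4.17, 4.39 and 4.16 CPM in WT and at 2.72, 1.44 and 3.55 CPM in KD, so the groups did not overlap, with a log2 fold change of -0.72 (edgeR adjusted p = 0.0836, and 0.0163 with the replicate block). Gm38666 was at 10.1, 14.9 and 12.8 CPM in WT and at 12.3, 13.1 and 15.2 CPM in KD, overlapping, with a log2 fold change of 0.10 (adjusted p = 0.657). Both had fractional counts and were chosen after their values were seen.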
